A study of Mus musculus with 2 samples.

Results

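Cxcl1, Cxcl2, Cxcl9, Cxcl10, Cxcl14, Cxcl16 and Pf4 are 7 genes of the CXC chemokine family, small secreted or shed proteins named after a cysteine pair that is separated by a single residue. They were taken by name from the 32285 genes listed for both libraries, of which 20206 had at least 1 unique molecular identifier (UMI, the tag of 1 captured RNA molecule) in a retained cell. All 7 were listed in both libraries and none of them served as a marker in the gates that defined the cell classes. The data are droplet single-cell RNA-seq, read from the 3' end of transcripts, of live CD45+ cells sorted from adrenal glands. One library came from female and 1 from male C57BL/6 mice, all aged 7 weeks and with no treatment named; how many animals entered each library was not given in the sources used here. With 1 library per sex there is no replicate, so no difference between the sexes was tested, and sex cannot be told apart from the preparation of each library. The sort on CD45, a surface protein of leukocytes, should also have removed most endothelial and adrenal cortical cells.

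CXC chemokines guide leukocytes by binding receptors of the CXCR family. Those that carry a Glu-Leu-Arg sequence before the cysteines, such as CXCL1 and CXCL2, act on CXCR2 and attract neutrophils, and their genes respond to NF-kB. CXCL9 and CXCL10 are induced by interferons and attract activated T and NK cells through CXCR3. CXCL16 is made as a transmembrane protein whose receptor is CXCR6, and PF4 (CXCL4) is best known from platelet granules.

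Filtering left 3694 female and 2449 male cells, at a median depth of 3490 and 3008 UMIs. Gates on marker genes assigned 3375 and 2177 of them to a class. Macrophages numbered 839 and 889 and were divided into Lyve1-high (62 and 125), Aldh1a2-high (101 and 135), MHC-II low (163 and 21) and MHC-II high (457 and 506) cells, apart from 56 and 102 others under 1000 UMIs. Lyve1 encodes a hyaluronan receptor, Aldh1a2 a retinoic acid-producing enzyme, and MHC-II the antigen-presenting molecules read by CD4 T cells. Monocytes (253 and 132), dendritic cells (58 and 38), neutrophils (42 and 48), endothelial cells (34 and 41) and lymphocytes (2112 and 1017, being B, T, NK and innate lymphoid cells) made up the other classes used. All 8 markers of a class were detected in the class it names in both libraries, except for male innate lymphoid cells (6 of 8) and for the single male mature dendritic cell (3 of 8). The gates used these same markers, so this is not an independent check of the classes. Levels are given as CPM, the UMIs of a gene scaled to a common total of UMIs per class, with the female value first. Each bracket after a level, a share or a ratio is a 95% exact interval that covers counting error only. Because the gates were rebuilt from marker genes, a class may differ from the one the study gave the same name.

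Of the 7 members, 5 lie on chromosome 5 (build GRCm38). Pf4 (chr5:90772435-90773383), Cxcl1 (chr5:90891241-90893115) and Cxcl2 (chr5:90903871-90905938) lie on the plus strand, with 118 kb between the first pair and 10.8 kb between the second. Cxcl9 (chr5:92321347-92328079) and Cxcl10 (chr5:92346638-92348889) lie 18.6 kb apart on the minus strand, 1415 kb beyond Cxcl2. Cxcl14 is at chr13:56288643-56296551 and Cxcl16 at chr11:70453983-70459984, both on the minus strand. No member overlapped another gene on its own strand.

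The promoter of Cxcl2 is shown because macrophages with Cxcl2, unlike neutrophils, also carried more RNA of an NF-kB list and of a digestion list. Beside it are the promoters of its neighbour Cxcl1 and of Cxcl9 and Cxcl10, the interferon-induced members. Each runs from 250 bases before to 50 bases after the transcription start in RefSeq (GRCm38.p6), on the gene's own strand, and capitals mark every match on either strand to the kappa-B consensus, the interferon-stimulated response element core (GAAA, any 2 bases, GAAA), the GAS motif TTCNNNGAA, the AP-1 site TGAGTCA or the TATA box TATAAA. RefSeq entries were matched for 6 of the 7 members.
Cxcl1 (chr5:90890995-90891294, plus strand): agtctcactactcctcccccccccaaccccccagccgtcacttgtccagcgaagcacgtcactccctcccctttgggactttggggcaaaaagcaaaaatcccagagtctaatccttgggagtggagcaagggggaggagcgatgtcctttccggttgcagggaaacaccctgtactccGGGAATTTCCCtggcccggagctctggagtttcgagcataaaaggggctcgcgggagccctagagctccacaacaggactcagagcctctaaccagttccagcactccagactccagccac
Cxcl2 (chr5:90903649-90903948, plus strand): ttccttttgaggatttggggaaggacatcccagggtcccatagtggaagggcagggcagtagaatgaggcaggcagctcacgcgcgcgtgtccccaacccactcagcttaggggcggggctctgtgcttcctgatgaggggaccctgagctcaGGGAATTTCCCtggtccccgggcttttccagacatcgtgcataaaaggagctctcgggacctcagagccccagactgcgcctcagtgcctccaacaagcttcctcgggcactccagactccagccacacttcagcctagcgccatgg
Cxcl9 (chr5:92328030-92328329, minus strand): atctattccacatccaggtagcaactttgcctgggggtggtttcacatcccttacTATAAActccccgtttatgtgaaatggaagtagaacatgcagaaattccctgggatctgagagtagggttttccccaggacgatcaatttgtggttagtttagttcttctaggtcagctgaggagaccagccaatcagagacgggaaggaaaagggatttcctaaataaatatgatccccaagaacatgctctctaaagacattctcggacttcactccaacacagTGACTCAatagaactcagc
Cxcl10 (chr5:92348840-92349139, minus strand): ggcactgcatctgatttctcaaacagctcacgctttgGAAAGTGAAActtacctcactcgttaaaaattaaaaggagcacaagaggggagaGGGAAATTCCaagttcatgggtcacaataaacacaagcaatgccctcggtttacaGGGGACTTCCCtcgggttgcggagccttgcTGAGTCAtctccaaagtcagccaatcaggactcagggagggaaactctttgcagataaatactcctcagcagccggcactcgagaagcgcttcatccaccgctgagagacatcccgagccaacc

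Cxcl1 and Cxcl2 each held the same 11-base run, GGGAATTTCCC, which matches the kappa-B consensus on both strands and overlaps itself. It began 71 bases before the start of Cxcl1 and 97 bases before that of Cxcl2. Cxcl10 held 2 kappa-B runs, GGGAAATTCC at 159 and GGGGACTTCCC at 104 bases before the start, besides the response element match GAAAGTGAAA at 213 and an AP-1 site at 74. Cxcl9 held none of these in the window other than TATAAA at 195 bases before and an AP-1 match, TGACTCA, from 32 bases after the start. Cxcl14 held a GAS match, TTCTGAGAA, and a response element match, GAAACAGAAA, and Pf4 none of the 5 motifs. Among 32851 promoters of the same length, 8.46% held the kappa-B consensus, 3.44% the response element core, 8.30% the GAS motif, 5.20% the AP-1 site and 13.6% TATAAA.

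**Figure D1:**
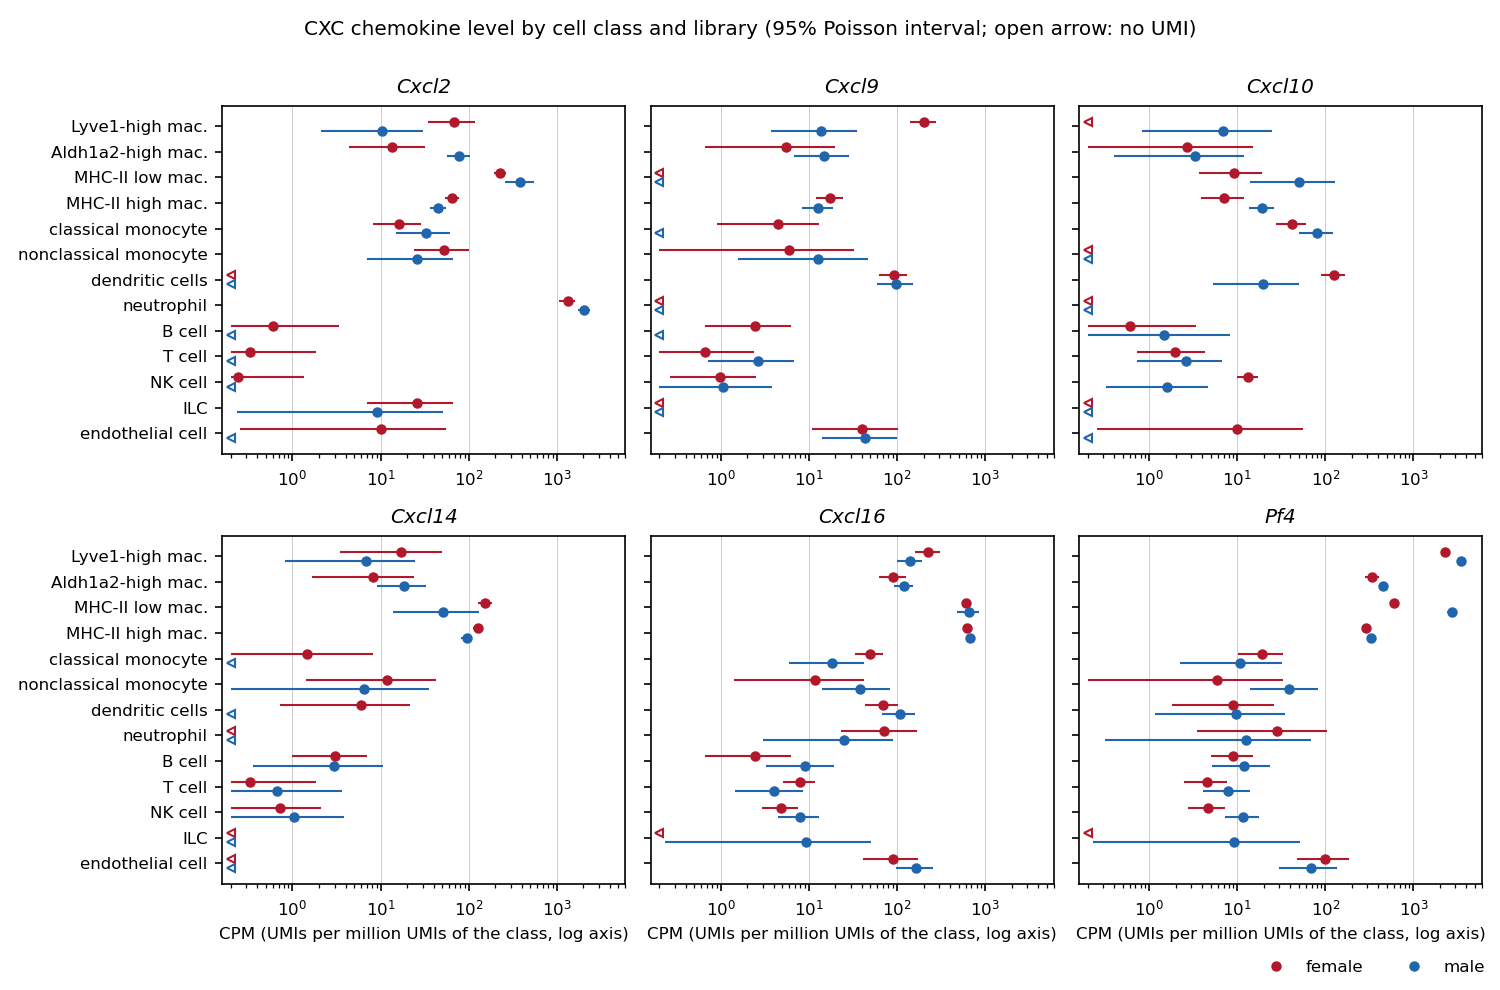
Level of 6 CXC chemokines (CPM, log axis) in 13 cell classes of the female and the male library, 1 panel per gene; points are levels, bars 95% Poisson intervals, open arrows classes without a UMI. Cxcl2 reached 1328 and 2045 CPM in neutrophils, and Pf4 was highest in Lyve1-high macrophages. Among macrophages apart from those under 1000 UMIs, Cxcl14 and Cxcl16 were highest in MHC-II low and MHC-II high cells.

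Cxcl1, a neutrophil attractant, was nearly absent from the gated leukocytes. The female library held 5 UMIs in 5 cells, 3 of them in macrophages (0.909 CPM, 0.187-2.66), and none of its 42 neutrophils had one, which allows up to 42.8 CPM in that class. Neither library had a Cxcl1 UMI in monocytes, dendritic cells or lymphocytes. The male library held 11 UMIs, all in 1 cell outside the gates. That cell fell in a cluster of 6 female and 15 male cells led by Ecrg4, Cpe, Meg3, Kcnk3 and Cyp21a1, the last of which encodes the steroid 21-hydroxylase of the adrenal cortex.

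Cxcl2, the neighbour of Cxcl1 and likewise a ligand of CXCR2, was highest in neutrophils. These held 93 UMIs in the female and 164 in the male library, or 1328 CPM (1072-1627) and 2045 CPM (1744-2383), and 19 of 42 and 20 of 48 neutrophils had at least 1. When each cell was reduced to 1000 randomly drawn UMIs so that depth was the same, 35.1% and 41.0% of neutrophils still carried a Cxcl2 UMI. Macrophages held 315 and 175 UMIs, which is 95.4 (85.2-107) and 56.5 CPM (48.4-65.5), and only 2.88% of drawn macrophages of each library carried one. The level in neutrophils was thus 13.9-fold (10.9-17.6) and 36.2-fold (29.1-45.1) that in macrophages, where 9.75% of 6372 genes were at least 2-fold higher in neutrophils in both libraries. A mitochondrial ceiling of 1.2%, which left 323 and 354 cells in all, gave ratios of 21.8 and 109. The study names a ceiling of the same figure but kept many more cells, so the scale of that figure is in doubt and the setting may not be the study's own. Lymphocytes, used here as the measure of RNA that was free in the droplets, held 0.769 and 0.237 CPM (7 and 1 UMIs) at a median of 3717 and 3814 UMIs per cell, against 3403 and 2612 in macrophages. Of these UMIs, 4 and 1 lay in innate lymphoid cells, at 25.8 (7.04-66.2) and 9.18 CPM (0.232-51.1), so the level was not even across lymphocytes.

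Within macrophages, Cxcl2 was unevenly spread. MHC-II low cells held 226 CPM (193-263) in the female library and 382 CPM (257-545) in the male one, and MHC-II high cells 64.8 (54.0-77.1) and 44.8 CPM (36.1-55.0). The MHC-II low level was 3.49-fold (2.76-4.42) and 8.52-fold (5.44-12.98) the MHC-II high level, so that the order was alike in both libraries. By the gates the next places were not alike. Lyve1-high cells held 67.3 CPM (12 UMIs) and 10.3 CPM (3 UMIs), whereas Aldh1a2-high cells held 13.6 CPM (5 UMIs) and 77.9 CPM (47 UMIs). The Lyve1-high graph cluster was at 98.15 (60.8-150) and 69.5 CPM (45.8-101). The graph cluster with Aldh1a2 among its leading genes was at 15.1 (4.11-38.6) and 109 CPM (78.8-147), so the male intervals overlapped. Few cells carried these UMIs. In MHC-II low cells the 5 highest held 88.9% of 171 UMIs in the female library and 96.7% of 30 in the male one, with up to 68 and 15 in a single cell. The NF-kB list was at 1310 and 3091 CPM in MHC-II low against 1039 and 989 CPM in MHC-II high cells. The digestion list was at 1063 and 2748 against 807 and 872 CPM, and the part of either list in the ratios was not tested. Monocytes held 23.3 and 28.7 CPM of Cxcl2, and none of the 58 and 38 dendritic cells had a Cxcl2 UMI, which allows levels of up to 8.94 and 14.6 CPM.

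Macrophages with a Cxcl2 UMI carried more RNA of other early-response genes. At equal depth there were 22 such cells of 764 in the female and 22 of 763 in the male library. Among the female cells 10 were MHC-II low and 11 MHC-II high, and among the male cells 4 and 12. The summed level of an NF-kB list of 10 genes was 11864 CPM in the female cells with Cxcl2 and 797 in those without, and 4136 against 951 CPM in the male cells. Ccl4, a chemokine gene of the CC family, was at 6091 against 148 CPM (41.1-fold, 31.7-53.4) and at 1091 against 227 CPM (4.81-fold). Its close relative Ccl3 was at 2727 against 93.0 CPM and at 409 against 78.3 CPM, and Il1b, the inflammatory cytokine IL-1 beta, was at 1364 against 115 and at 1000 against 148 CPM. A list of 10 genes that respond to tissue digestion, such as Fos, Egr1 and Dusp1, was also higher, at 3727 against 1096 CPM and 5045 against 1410 CPM. Dusp1, a phosphatase gene induced by stress, was 3.79-fold and 6.62-fold higher. The interferon list was at 136 against 453 CPM in the female and 455 against 468 CPM in the male library, so it was not higher with Cxcl2 in either.

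Of the list genes with at least 50 drawn UMIs in each library, 4 of 5 NF-kB genes (Nfkbia, Il1b, Ccl3 and Ccl4), 5 of 6 digestion genes (Fos, Junb, Egr1, Dusp1 and Ier2) and 0 of 3 interferon genes were at least 2-fold higher in cells with Cxcl2 in both libraries. Over all 2020 genes of that depth the share was 1.68%. The neutrophil markers were not higher in the macrophages with Cxcl2, at 136 CPM (28.1-399) against 147 and at 45.5 CPM (1.15-253) against 153, and the macrophage markers stood at 17136 against 15767 and 17409 against 15012 CPM. Both marker lists served in the gate, where the macrophage list had to lead by 2. Cells rich in neutrophil markers were thus left out beforehand, and the part of neutrophil RNA in these cells was not tested. Neutrophils did not show the higher NF-kB list of macrophages with Cxcl2. That list was at 14846 CPM in neutrophils with and 14458 in those without Cxcl2 in the female, and 13375 and 12652 in the male library. Their digestion list was lower with Cxcl2 in the female library, at 24923 CPM (22283-27790) against 32208 (29978-34561), and stood at 34062 (31262-37046) against 37696 CPM (35228-40291) in the male one. The digestion list was at 28318 and 35264 CPM over all neutrophils, against 1115 and 1507 CPM in macrophages. The part of the dissociation in the level of Cxcl2 was not tested.

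**Figure D2:**
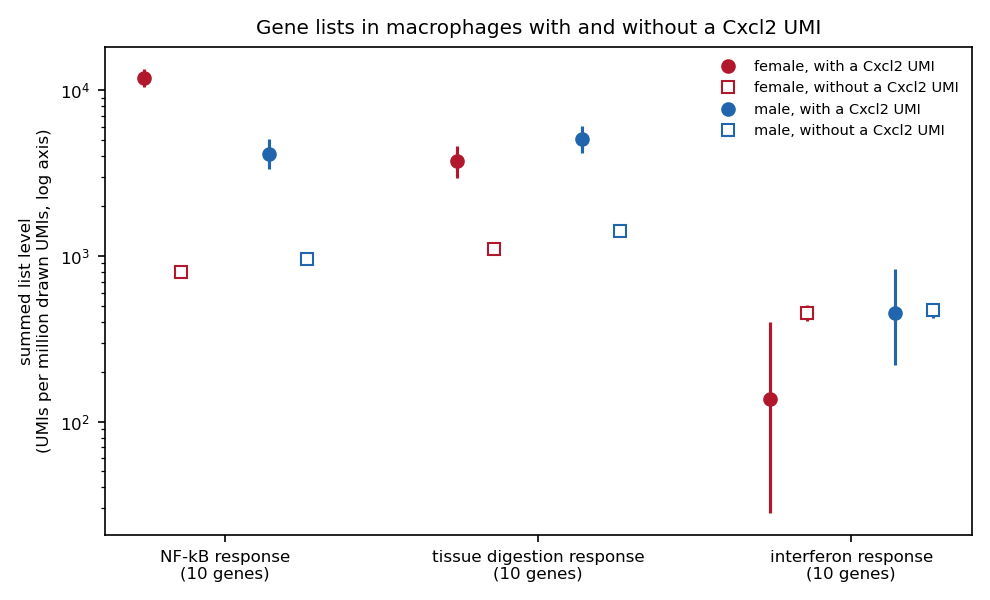
Summed level of 3 lists of 10 genes (CPM of drawn UMIs, log axis) in macrophages with (filled circles) and without (open squares) a Cxcl2 UMI, with 95% Poisson intervals, in the female and the male library. The NF-kB list stood at 11864 against 797 and 4136 against 951, whereas the interferon list was not higher with Cxcl2.

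Cxcl9, a CXCR3 ligand induced by interferon-gamma, was found in few cells, some of which held many UMIs. Dendritic cells held 92.4 CPM (62.7-131; 31 UMIs) and 97.3 CPM (59.4-150; 20 UMIs). In the female library 27 of these 31 UMIs came from 1 cell of the cDC1 gate, the cross-presenting dendritic cells, and in the male library all 20 came from 4 cDC1 cells. Macrophages held 21.8 (17.1-27.5) and 13.2 CPM (9.50-17.96), so that dendritic cells were 4.23-fold (2.69-6.54) and 7.35-fold (4.08-12.8) higher, in a comparison where 2.38% of 6476 genes were at least 2-fold higher in dendritic cells in both libraries. Without the 5 cells with most Cxcl9 UMIs in each class no UMI was left in the gated dendritic cells of either library, and at a mitochondrial ceiling of 5% the female ratio fell to 0.732. The dendritic gate was narrow. The graph cluster that dendritic markers led, with Cd209a, Tnni2, Naaa and Flt3 as leading genes, held 193 and 126 cells and 125 and 48 Cxcl9 UMIs, which is 149 (124-178) and 86.7 CPM (63.9-115), but these too lay in 6 and 5 cells.

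Among the other classes, Lyve1-high macrophages held 202 CPM of Cxcl9 in the female library, of which 35 of 36 UMIs were in 1 cell, and 13.7 CPM (4 UMIs) in the male one. MHC-II high macrophages held 17.4 (12.0-24.3) and 12.7 CPM (8.27-18.6), Aldh1a2-high ones 5.44 (2 UMIs) and 14.9 CPM (9 UMIs), and neither library had a Cxcl9 UMI in MHC-II low macrophages. Monocytes held 4.66 and 6.63 CPM. Endothelial cells that passed the sort held 40.0 and 43.0 CPM, from 4 of 34 and 3 of 41 cells, which was above the lymphocyte level of 1.10 and 1.42 CPM in both libraries.

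Cxcl10, the other interferon-induced CXCR3 ligand studied, was found in monocytes, dendritic cells and macrophages, again in few cells. Classical monocytes, the Ly6C-high cells that enter tissue from blood, held 41.5 CPM (27.6-59.9; 9 of 177 cells) and 79.9 CPM (50.1-121; 5 of 69 cells). Macrophages held 6.67 (4.18-10.1) and 18.4 CPM (13.9-23.8), the male value including 10 UMIs in 2 cells of under 1000 UMIs. This put classical monocytes 6.22-fold (3.43-11.4) and 4.34-fold (2.53-7.21) higher, where 3.97% of 6645 genes reached 2-fold in that direction in both libraries. Classical monocytes also held more of the digestion list (3098 and 4804 against 1115 and 1507 CPM) and of the interferon list (820 and 850 against 469 and 489 CPM). The part of these lists in the ratios was not tested. The female ratio was 3.27 without doublet removal and 2.09 without the 5 highest cells of each class, and the male ratio was 2.20 with graph clusters in place of gates, 21.1 at the 1.2% ceiling and 0 without the 5 highest cells, which held all its monocyte UMIs. Dendritic cells held 125 CPM in the female library, all 42 UMIs in 1 cDC2 cell, and 19.5 CPM in the male one. NK cells held 13.4 CPM (55 UMIs, 41 of them in 1 cell) and 1.58 CPM (3 UMIs), and lymphocytes as a whole 6.81 and 1.90 CPM. The female macrophage level was thus no higher than that of lymphocytes, a level which that 1 NK cell set in large part.

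The macrophages with a Cxcl10 UMI, 6 in the female and 9 in the male library at equal depth, held the interferon list at 833 CPM (271-1945) against 441 and at 2889 CPM against 439. In those cells the NF-kB list was at 2833 against 1102 and at 6222 against 981 CPM. In the female library the interval of the interferon list includes the level of the other cells, and 1 cell, which also carried Cxcl1 and Cxcl2, held 13 of the 17 NF-kB UMIs. The digestion list was at 1000 against 1173 CPM and at 4111 against 1484 CPM. With 6 and 9 cells these values describe those cells and no more.

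Cxcl14, a chemokine that many epithelia express constitutively, was nearly confined to MHC-II low and MHC-II high macrophages, which with the other macrophages held 89.0% and 90.3% of its UMIs. MHC-II high cells were at 127 CPM (111-143) and 94.5 CPM (81.7-109), with a UMI in 131 of 457 and 116 of 506 cells. MHC-II low cells were at 153 CPM (127-184) in the female and 50.9 CPM (13.9-130; 4 UMIs) in the male library, and their order against MHC-II high cells differed within counting error in each. Lyve1-high cells were at 16.8 and 6.86 CPM, and Aldh1a2-high cells at 8.15 and 18.2 CPM. MHC-II high macrophages exceeded Lyve1-high ones 7.52-fold (2.54-36.7) and 13.8-fold (3.76-115). Neutrophils had no Cxcl14 UMI in either library, a count that allows up to 42.8 and 37.4 CPM, monocytes held 3.50 and 2.21 CPM, and lymphocytes held 1.21 and 1.18 CPM. Unlike Cxcl2, the gene was spread over many cells, for the 5 highest macrophages held 9.68% and 14.1% of the class's UMIs. None of the 22 drawn macrophages with Cxcl2 had a Cxcl14 UMI in either library, against 9.97% and 6.48% of the others, but 0 of 22 allows a share of up to 13.6%.

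Cxcl16, which encodes the membrane-bound ligand of CXCR6, was carried by most MHC-II high macrophages at their full depth, but not by most at equal depth. In the female library 376 of 457 MHC-II high cells (82.3%) had a UMI, and in the male library 411 of 506 (81.2%), and at equal depth in 189 of 457 (41.4%) and 253 of 506. The level was 627 CPM (593-663) and 669 CPM (634-705) in MHC-II high cells, and 600.3 CPM (546-658) and 649 CPM (483-853) in MHC-II low cells. The ratio of MHC-II high to MHC-II low cells was 1.05 (0.938-1.17) and 1.03 (0.780-1.39), so these neighbours in the order did not differ beyond counting error. Lyve1-high cells were lower, at 224 CPM (160-306) and 141 CPM (101-191), as were Aldh1a2-high cells, at 89.7 and 119 CPM. MHC-II high cells exceeded Lyve1-high cells 2.80-fold (2.04-3.93) and 4.76-fold (3.49-6.66), and Aldh1a2-high cells 6.99-fold (4.95-10.2) and 5.60-fold (4.42-7.20). In the graph cluster with Aldh1a2 among its leading genes Cxcl16 was lower than in the gate, at 60.3 (34.5-97.9) and 25.3 CPM (12.1-46.6). In the first of these comparisons 5.43% of 4917 genes were at least 2-fold higher in MHC-II high cells in both libraries, Cxcl14 and Cxcl16 among them. The ratio of Cxcl16 to Lyve1-high cells depended on few cells, and was 4.69 and 7.48 without the 5 highest cells of each class and 5.58 and 3.23 at a mitochondrial ceiling of 5%.

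Outside macrophages, Cxcl16 was at 68.5 and 107 CPM in dendritic cells, 42.0 and 26.5 CPM in monocytes, and 90.1 (41.2-171) and 163 CPM (98.3-255) in endothelial cells. Endothelial cells were 16.1-fold (6.96-33.0) and 23.8-fold (12.6-43.9) above lymphocytes, which held 5.60 and 6.87 CPM. The endothelial cells also carried macrophage RNA, as the 8 macrophage markers summed to 1393 CPM (990-1904) and 1871 CPM (1421-2419) in them at equal depth, against 119 and 161 CPM in lymphocytes and 15806 and 15081 CPM in macrophages. Ptprc, which encodes the sorted CD45, had 0 UMIs in the 28 female and 3 in the 31 male endothelial cells of that depth. The part of macrophage RNA in the endothelial levels of Cxcl9, Cxcl16 and Pf4 was not tested. Macrophages held 85.1% and 88.9% of all Cxcl16 UMIs. Adam10 and Adam17, which encode the proteases that release CXCL16 from the membrane, were both found in macrophages, Adam10 at 157 and 121 CPM and Adam17 at 96.6 and 103 CPM.

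Pf4, which encodes platelet factor 4, was highest in Lyve1-high macrophages. These held 2290 CPM (2073-2523) and 3433 CPM (3223-3652), with a UMI in 54 of 62 and 116 of 125 cells, and at equal depth in 75.9% and 84.4%. MHC-II high cells were at 286 (263-311) and 328 CPM (303-354), and Aldh1a2-high cells at 340 (283-405) and 456 CPM (404-513). The Aldh1a2-high value rests on the gate, of whose 101 and 135 cells 76 and 85 lay in the graph cluster with Aldh1a2 among its leading genes and 9 and 22 in the Lyve1-high cluster. That graph cluster held only 71.6 (43.1-112) and 119 CPM (87.4-158) of Pf4, so the order of Aldh1a2-high and MHC-II high cells is not settled. Lyve1-high cells exceeded MHC-II high cells 8.01-fold (7.03-9.12) and 10.5-fold (9.49-11.6), where 6.91% of 4917 genes were at least 2-fold higher in Lyve1-high cells in both libraries. The ratio was 16.5 and 3.07 at the 1.2% ceiling, which left 2 and 1 Lyve1-high cells. Lyve1-high cells also had a higher median mitochondrial share than MHC-II high cells (5.92% and 6.42% against 3.10% and 2.85%) and more of the digestion list (2043 and 2116 against 807 and 872 CPM), whose part in the ratios was not tested. Of the 4 subsets, MHC-II low cells came second, at 602 CPM (548-660) in the female and 2760 CPM (2405-3153) in the male library, but the male value rests on 21 cells, 1 of which held 110 of the 217 UMIs. Macrophages together held 92.1% and 94.0% of all Pf4 UMIs.

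The genes that define platelets were checked in the macrophages. Gp9, Itga2b, Gp1bb, Gp1ba and Gp6 had no UMI in macrophages of either library. The 8-gene platelet list summed to 13.9 and 22.6 CPM, of which Clec1b, a lectin receptor gene, gave 13.3 and 20.7 CPM. Lymphocytes held 5.27 and 10.2 CPM of Pf4, and endothelial cells 100.1 and 68.8 CPM, which was 19.0-fold (8.56-38.0) and 6.75-fold (2.74-14.5) the lymphocyte level while carrying the macrophage markers described for Cxcl16.

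**Figure D3:**
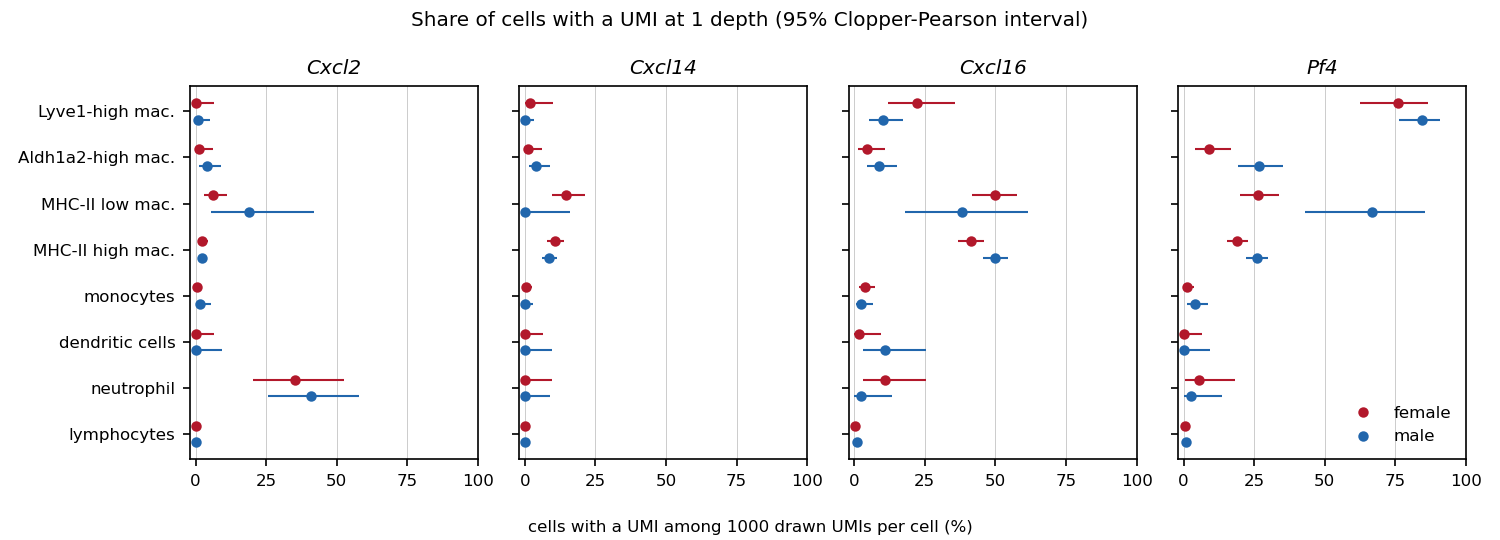
Share of cells (%) with a UMI of Cxcl2, Cxcl14, Cxcl16 or Pf4 after each cell was reduced to 1000 drawn UMIs, in 8 classes of the female and the male library, with 95% Clopper-Pearson intervals. Pf4 was in 75.9% and 84.4% of Lyve1-high macrophages, Cxcl16 in 189 of 457 and 253 of 506 MHC-II high macrophages and Cxcl2 in 35.1% and 41.0% of neutrophils.

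The 4 members with at least 200 UMIs over the classes compared were set against all other genes of that depth. Likeness was Pearson's r of log2(CPM + 10) over 24 points, which are 12 classes in 2 libraries, so the points share libraries and depths and no p-value was attached. Classes with fewer than 30 cells in a library were left out, among them MHC-II low macrophages and each dendritic class. The values for Cxcl2 and Cxcl14 thus leave out MHC-II low cells, which held both genes. The genes most like Pf4 were Igf1, the growth factor gene (0.965), Mrc1, the mannose receptor gene (0.950), and C1qc, a complement gene (0.936). Those most like Cxcl16 were Ms4a7 (0.950), the tetraspanin gene Cd63 (0.934) and Cttnbp2nl (0.931). Cxcl14 ran closest to Lilra5 (0.913), Olfml3 (0.891) and G530011O06Rik (0.887). Cxcl2 ran closest to Fbxl5 (0.914), Clec4d (0.880) and S100a9 (0.878). Clec4d, S100a9, Ms4a7, Mrc1 and C1qc were gate markers, so their patterns were in part set by the gates. Cxcl1, Cxcl9 and Cxcl10 had too few UMIs.

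The receptors of these ligands were not used in any gate. Cxcr2, the receptor of CXCL1 and CXCL2, was at 1657 CPM (1369-1987) and 1471 CPM (1218-1762) in neutrophils, the class in which Cxcl2 was also highest. Cxcr3, the receptor of CXCL9 and CXCL10, was at 151 and 192 CPM in T cells and at 109 and 145 CPM in NK cells, and dendritic cells held 47.7 and 43.8 CPM. Cxcr6, the receptor of CXCL16, was at 484 and 340 CPM in innate lymphoid cells, at 270 and 358 CPM in T cells and at 124 and 175 CPM in NK cells. Cxcr5 was at 99.0 and 92.1 CPM in B cells. Cxcr4, the receptor of CXCL12, was at 985 and 1384 CPM in neutrophils and at 494 and 461 CPM in nonclassical monocytes. Cxcr1 had no UMI in macrophages.

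**Figure D4:**
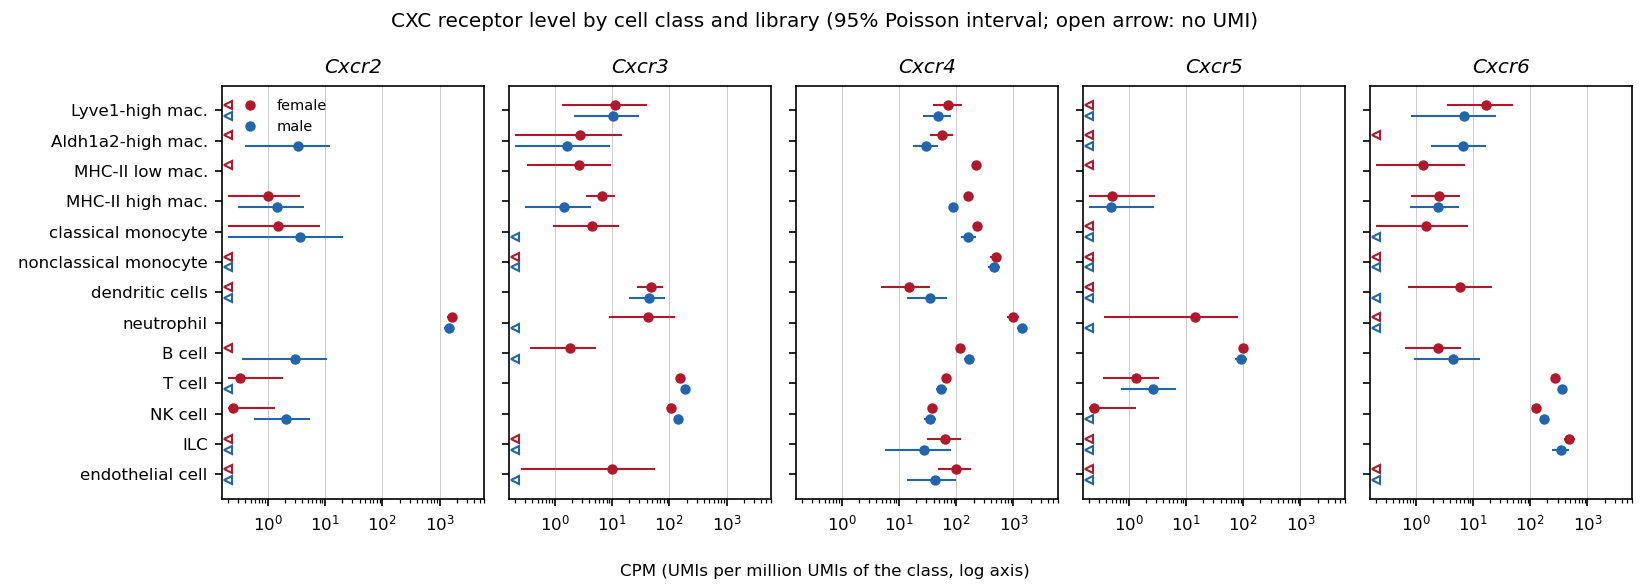
Level of 5 CXC receptor genes (CPM, log axis) in the cell classes of the female and the male library, with 95% Poisson intervals and open arrows where no UMI was found; the 21 male MHC-II low macrophages are not plotted. Cxcr2 stood at 1657 and 1471 CPM in neutrophils, Cxcr3 was highest in T and NK cells, and Cxcr6 in innate lymphoid, T and NK cells.

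Of the other CXC ligands, Cxcl5, Cxcl15 and Cxcl17 had no UMI in macrophages of either library. Cxcl12, the ligand of CXCR4, was at 107 CPM (64.2-167; 19 UMIs) and 144 CPM (104-195; 42 UMIs) in Lyve1-high macrophages and at 70.0 and 120 CPM in endothelial cells. Cxcl13, which attracts B cells through CXCR5, was at 44.9 (8 UMIs) and 10.3 CPM (3 UMIs) in Lyve1-high macrophages. Lower levels of Cxcl12 were found in Aldh1a2-high cells, at 21.7 CPM (9.39-42.8) and 29.8 CPM (17.7-47.2), and in MHC-II high cells, at 4.59 CPM (2.10-8.72) and 7.31 CPM (4.09-12.1).

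The last comparison is of the sexes, 1 library against the other. Over all macrophages the female to male ratio was 1.69 (1.40-2.04) for Cxcl2, 1.65 (1.11-2.48) for Cxcl9, 0.362 (0.211-0.602) for Cxcl10, 1.64 (1.38-1.95) for Cxcl14, 1.06 (0.994-1.14) for Cxcl16 and 0.668 (0.626-0.713) for Pf4. Only Cxcl10, of 6 members with at least 50 UMIs, passed 2-fold, being higher in the male library, and without doublet removal its ratio was 0.689 and no longer passed. Of 8457 genes tested in macrophages, 0.745% were at least 2-fold higher in the female and 0.922% in the male library, and 1.67% in either. The median log2 ratio was 0.40 over the 6 members and -0.06 over all genes.

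The libraries differed in their makeup of macrophages, since MHC-II low cells were 163 in the female and 21 in the male library and Lyve1-high cells 62 and 125. With both libraries weighted to the same makeup, the ratio of Cxcl2 became 0.849 and thus changed direction, that of Pf4 became 0.551 and that of Cxcl16 0.952. For Cxcl2 and Pf4 this gives more weight to the 21 male MHC-II low cells, in which few cells held most of the UMIs. The ratio was then 1.47 for Cxcl14 and 0.278 for Cxcl10, and that of Cxcl9 became 2.27, a value that weights Lyve1-high cells more in the female library, where 1 cell held 35 of their 36 Cxcl9 UMIs. Within MHC-II high cells, the largest subset in both libraries, the ratio was 1.45 (1.10-1.91) for Cxcl2, 1.34 (1.11-1.63) for Cxcl14, 0.872 (0.778-0.977) for Pf4 and 0.376 for Cxcl10 (14 and 39 UMIs), and Cxcl10 was again the 1 member of 6 past 2-fold, as were 1.12% of 7057 genes. In MHC-II low cells Cxcl2 was lower in the female library (0.592, 0.400-0.905), as was Pf4 (0.218, 0.185-0.257), whereas Cxcl14 was higher (3.01, 1.15-11.3). Those male values rest on 21 cells, of which 5 held 96.7% of the 30 Cxcl2 UMIs and 1 held 110 of the 217 Pf4 UMIs. In the same class the digestion list was at 1063 against 2748 CPM and the NF-kB list at 1310 against 3091 CPM, lower in the female library like Cxcl2, and their part in the ratios was not tested. In Lyve1-high cells the ratio was 0.667 (0.593-0.749) for Pf4 and 1.60 (1.01-2.53) for Cxcl16, the 2 members tested there. With fewer UMIs, it was 6.55 (1.77-36.15; 12 and 3 UMIs) for Cxcl2 and 14.7 (5.28-57.0; 36 and 4 UMIs) for Cxcl9. In Aldh1a2-high cells the ratio was 0.174 (0.0541-0.436) for Cxcl2, where 1.89% of 2804 genes passed 2-fold and Cxcl2 was 1 of 3 members tested to do so. The digestion list, at 2424 against 3263 CPM, and the NF-kB list, at 660 against 927 CPM, were likewise lower in the female Aldh1a2-high cells, and their part in the ratio was not tested.

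Few cells carried some of these ratios. Without the 5 macrophages with most UMIs of the gene in each library, the ratio was 1.26 for Cxcl2 and 0.843 for Cxcl9, the latter being a change of direction. At the mitochondrial ceiling of 1.2%, whose scale is in doubt and which left 71 and 128 macrophages, the ratio was 5.91 for Cxcl2, turned to 2.38 for Pf4 and no Cxcl10 UMI remained in the female macrophages.

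In neutrophils Cxcl2 was lower in the female library, at a ratio of 0.649 (0.498-0.843), which stayed short of 2-fold, where 3.82% of 419 genes passed it. At the 1.2% ceiling, which left 18 and 22 neutrophils, it turned to 1.19. The digestion list was likewise lower in female neutrophils, at 28318 against 35264 CPM, whereas the NF-kB list was at 13124 against 12868 CPM. The part of these lists in the ratio was not tested. In NK cells Cxcl10 was 8.46-fold higher in the female library and was the only member tested there, with 41 of its 55 female UMIs in 1 cell, and 1.15% of 8153 genes passed 2-fold. Among receptors, Cxcr4 was 2.11-fold (1.81-2.47) higher in female macrophages, at 163 against 77.2 CPM, but within MHC-II high cells the ratio was 1.88 (1.56-2.27), short of 2-fold.

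**Figure D5:**
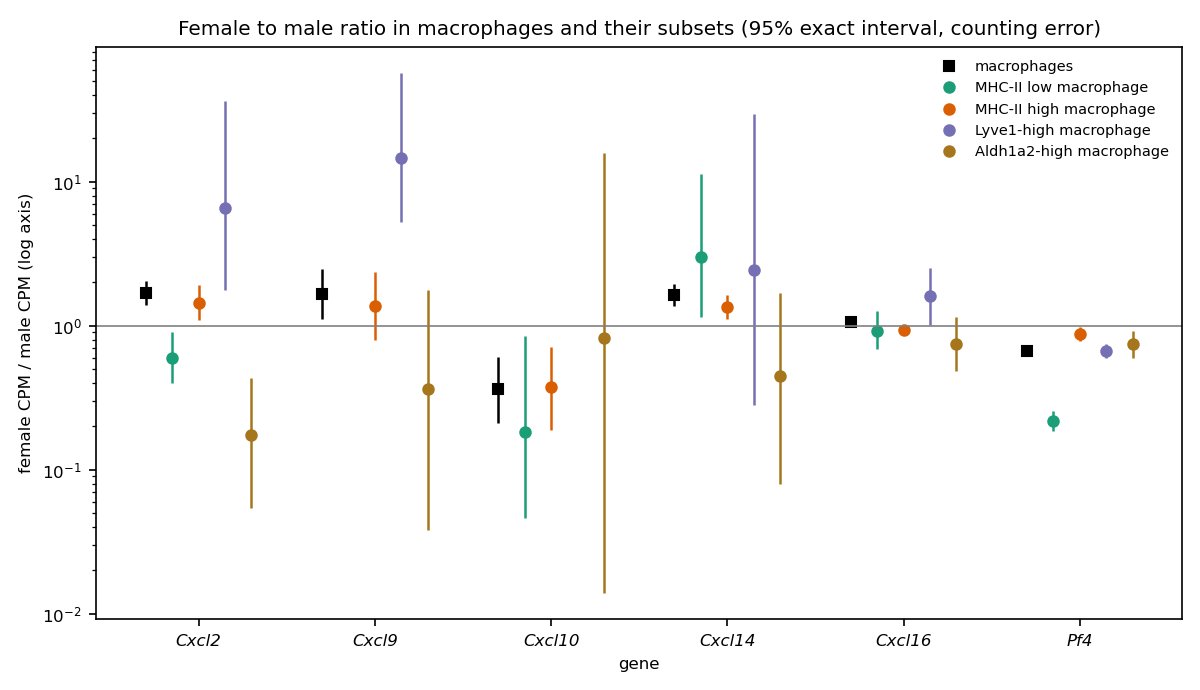
Ratio of the female to the male level (log axis) of 6 CXC chemokines in all macrophages (black squares) and in 4 subsets (circles), with 95% exact intervals for counting error and without points that had 0 UMIs in a library. Cxcl16 lay at 1.06 in all macrophages, Pf4 lay under 1 in each group shown, and the subsets of Cxcl2 lay on both sides of 1.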

How the data were processed

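Live CD45+ adrenal cells of female and male mice were profiled with 10x Genomics 3' v3.1 chemistry, 1 library per sex. The deposited matrices hold counts: the authors counted UMIs per gene and barcode with Cell Ranger 4.0.0 against mm10 and selected barcodes with DropletUtils 1.4.3, as the submitters' processing notes list them, and applied no normalization. The files held 3963 female and 2685 male barcodes with 16218309 and 9512670 UMIs. The members and all gene lists were chosen with earlier results of these data known.

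Barcodes with at least 200 genes and at most 15% mitochondrial UMIs were kept (the study names 1.2%, used as an alternative, but kept many more cells than the 323 and 354 that 1.2% left here, so its scale is in doubt). Scrublet's automatic threshold marked 1 and 8 barcodes, so the highest scores were removed at 0.8% per 1000 barcodes (126 and 58). The libraries shared 2 barcodes. Cells were gated on 16 lists of 8 markers, needing at least 3 detected and a lead of 2 over the next lineage. MHC-II high macrophages had more than 10 UMIs of 4 MHC-II genes per 1000 drawn. Members were computed in every class and the main classes are printed, list genes are given by count, and for likeness the 3 genes with the highest correlation. A gene entered a 2-fold count with at least 50 UMIs, in both libraries together for the sexes and in each library for classes. Levels were computed per class as CPM from summed UMIs, with exact Poisson intervals for levels, Clopper-Pearson intervals for shares and exact conditional binomial intervals for ratios; amplified UMIs and cells of 1 library are not replicates. A count of 0 allows 3 counts. Self-tests on simulated data were run after the main comparisons, and that of the ratios was simulated from the summed counts of macrophages and neutrophils. Alternatives changed the mitochondrial ceiling, gates, doublet removal, averaging, the 5 highest cells, the makeup, the scaling, the MHC-II boundary and the drawn depth. Python 3.11.15 with numpy 2.4.6, scipy 1.17.1, pandas 2.3.3, scanpy 1.11.5, leidenalg 0.10.2 and matplotlib 3.10.9 was used.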

Additional observations from a re-analysis of the deposited data

Results flagged for a closer look

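In cells outside the gates, 3 members had a counting interval wholly above that of the gated cells in at least 1 library. Cxcl1 was at 13.2 CPM (6.61-23.7) in the ungated male cells against 0 in gated ones, all from 1 cell of the cluster with adrenal cortical genes. Cxcl9 was at 108 CPM (89.8-128) in the ungated female cells and at 39.7 CPM (27.4-55.8) in the male ones, against 8.72 and 9.14 CPM in gated cells; of the 126 female UMIs, 94 lay in 4 ungated cells of the dendritic cluster. Cxcl10 was at 22.3 CPM (14.5-32.6) and 31.3 CPM (20.4-45.9) in ungated cells, against 11.2 and 11.1 CPM in gated ones.

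For 4 pairs of classes, the order of a member was opposite in the 2 libraries with both counting intervals away from 1; the difference between the libraries was not tested. For Cxcl2, the ratio of MHC-II high to Aldh1a2-high macrophages was 4.77 (1.99-14.9) in the female and 0.575 (0.400-0.836) in the male library, and that of Lyve1-high to Aldh1a2-high macrophages was 4.96 (1.63-17.96) and 0.132 (0.0263-0.410). The female Aldh1a2-high cells held 5 and the male Lyve1-high cells 3 Cxcl2 UMIs. By graph clusters, the male Lyve1-high cluster was at 69.5 CPM (45.8-101) and the one with Aldh1a2 among its leading genes at 109 CPM (78.8-147). These intervals overlap, so the male order of Lyve1-high and Aldh1a2-high cells depends on the gates. The male Aldh1a2-high gate held 22 cells of the Lyve1-high cluster. For Cxcl9, Lyve1-high macrophages over dendritic cells gave 2.19 (1.32-3.66) and 0.141 (0.0350-0.421), with 35 of the 36 female UMIs in 1 cell. For Cxcl10, classical monocytes over dendritic cells gave 0.331 (0.198-0.547) and 4.10 (1.39-16.4), with all 42 female dendritic UMIs in 1 cell.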

How the results depend on the processing

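No paired analysis was possible because each sex has 1 library, and no replicate could be left out. Of the ratios and counts that answer a comparison, 153 values under alternatives kept their direction and size within the counting interval, 35 moved and 8 reversed; those that moved or reversed follow, female before male where both are given, and the cause was not tested. For the female to male ratio in macrophages, the 1.2% ceiling gave 5.91 for Cxcl2, 2.58 for Cxcl14, 2.38 for Pf4 (reversed) and 0 for Cxcl10, the 5% ceiling 0.804 for Pf4, the mean over cells 1.31 for Cxcl2 and 1.08 for Cxcl9, leaving out the 5 highest cells 1.26 for Cxcl2 and 0.843 for Cxcl9 (reversed), the same makeup 0.849 for Cxcl2 (reversed), 0.952 for Cxcl16 and 0.551 for Pf4, and no doublet removal 0.689 for Cxcl10. In neutrophils the 1.2% ceiling gave 1.19 for Cxcl2 (reversed). For Cxcl2 in neutrophils over macrophages, the 1.2% ceiling gave 21.8 and 109, clusters 10.9 in the female library, and in the male one the mean over cells 27.2 and leaving out the 5 highest cells 23.6. For Cxcl9 in dendritic cells over macrophages, the female ratio was 0.732 at 5% (reversed), 7.98 with the stricter and 10.1 with the looser gate and 7.80 with clusters, and 0 in both libraries without the 5 highest cells (reversed). For Cxcl10 in classical monocytes over macrophages, the female ratio was 3.27 without doublet removal and 2.09 without the 5 highest cells, and the male ratio 21.1 at 1.2%, 2.20 with clusters and 0 without the 5 highest cells (reversed). For Cxcl16 in MHC-II high over Lyve1-high cells, 5% gave 5.58 and 3.23, leaving out the 5 highest cells 4.69 and 7.48, and clusters 4.49 in the female library. For Pf4 in Lyve1-high over MHC-II high cells, 1.2% gave 16.5 and 3.07, the mean over cells 6.94 and 8.54, and in the female library 5% gave 9.69 and clusters 10.7. Genes past 2-fold between the sexes fell from 141 to 37 in macrophages and from 16 to 1 in neutrophils with at least 200 UMIs, where fewer genes were tested (4263 and 91). The 1.2% ceiling left 323 and 354 cells, of which 2 and 1 were Lyve1-high, and its scale in the study is in doubt. The MHC-II boundary bears only on the ratios of Cxcl14, Cxcl16 and Pf4 between MHC-II high and Lyve1-high cells. Set at 5 or 20, it moved none of them beyond the counting interval. The other rerun ratios could not change with it, yet are counted among the 153 kept values. Ratios of MHC-II low cells were not rerun at another boundary. Median-of-ratios scaling moved none of the female to male ratios it was applied to beyond the counting interval. Of the other levels and shares, 197 values kept within it and 55 moved; a mean over cells gives no share, and a ratio to 0 UMIs was left out. Depth limits Cxcl1, Cxcl9 and Cxcl10, whose UMIs lay in few cells.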
